A study of Rattus norvegicus with 19 samples.

Results

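The immediate early genes are a set of 10 genes, Fos, Fosb, Fosl2, Jun, Junb, Egr1, Egr2, Nr4a1, Arc and Ier2, whose mRNA was measured in 2 hypothalamic nuclei of hypertensive and normotensive rats. Members were every probe set to which the platform annotation gives 1 gene symbol from this set, which found 15 probe sets among 31042, for 10 of 14217 genes. RNA came from the paraventricular nucleus (PVN) and the supraoptic nucleus (SON) of untreated male rats of the inbred spontaneously hypertensive strain (SHR) and the normotensive Wistar Kyoto strain (WKY), labelled as 12 weeks old. The PVN was read on 5 arrays in each strain, and the SON on 5 arrays in WKY and 4 in SHR. By the study's methods systolic blood pressure was taken by tail cuff 5 days before tissue collection, in rats that had been warmed and held in a restraining tube. The rats were later stunned and decapitated, the nuclei were dissected from brain slices, and nuclei were pooled. Arrays, not animals, are therefore the replicates, and the labels do not say whether PVN and SON arrays of a strain came from the same rats.

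Immediate early genes are transcribed within minutes of a stimulus without new protein synthesis, through kinase cascades that act on factors such as CREB and SRF already bound at their promoters. Fos, Fosb and Fosl2 pair with Jun and Junb to form the AP-1 transcription factors. Egr1 and Egr2 are zinc-finger factors, Nr4a1 is an orphan nuclear receptor, Arc is a cytoskeletal protein of active synapses, and Ier2 is a small nuclear protein. In the PVN and SON, where neurones release vasopressin and oxytocin, these mRNAs are low at rest and rise after osmotic, cardiovascular or restraint stimuli, so they are widely used as markers of recent neuronal activity.

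The promoters of 3 members are shown because they hold elements of the kind through which activity reaches these genes. RefSeq promoter entries were at hand for 7 of the 10 members (Fosb, Fosl2, Junb, Egr1, Egr2, Nr4a1 and Ier2). The 250 bases before the start of the gene are printed 5′ to 3′ on the plus strand of GRCr8. Capitals mark the half-site of the cyclic AMP response element, TGACG on either strand, which the full element TGACGTCA contains on both. Nr4a1 (chr7:134259888-134260137) is one of the genes that differed between the nuclei and spread together with Fos. Junb (chr19:40080876-40081125) is the gene whose SHR and WKY arrays did not overlap in the PVN, and Ier2 (chr19:40399123-40399372) is the one member with the full element.
Nr4a1: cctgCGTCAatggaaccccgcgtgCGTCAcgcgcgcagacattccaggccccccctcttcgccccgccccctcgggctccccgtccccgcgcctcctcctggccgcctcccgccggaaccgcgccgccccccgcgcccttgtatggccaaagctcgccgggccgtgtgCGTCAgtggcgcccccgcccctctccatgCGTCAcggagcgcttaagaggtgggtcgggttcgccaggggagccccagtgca
Junb: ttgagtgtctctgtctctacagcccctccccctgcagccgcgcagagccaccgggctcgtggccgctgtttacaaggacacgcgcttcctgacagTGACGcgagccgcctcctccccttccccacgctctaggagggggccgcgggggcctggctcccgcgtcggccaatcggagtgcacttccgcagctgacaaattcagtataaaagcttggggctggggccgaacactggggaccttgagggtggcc
Ier2: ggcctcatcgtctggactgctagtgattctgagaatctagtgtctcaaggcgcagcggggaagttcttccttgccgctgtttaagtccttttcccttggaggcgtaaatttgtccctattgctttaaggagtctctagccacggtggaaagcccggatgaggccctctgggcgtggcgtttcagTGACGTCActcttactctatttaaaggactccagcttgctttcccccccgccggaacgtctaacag
The half-site was found in 5 of the 7 member promoters, against 18.2% of 33469 rat promoters of this length. Nr4a1 held 4 half-sites, Egr1 and Ier2 held 2 each, and Junb and Egr2 held 1 each. The 2 in Ier2 overlap in 1 full element, which 1.59% of all promoters hold. The SRF-binding CArG box was found in Egr1, with 2 copies, and in Egr2, with 1, against 1.5% of all promoters. These matches describe the letters of the windows only.

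Signals are given as the log2 of the MAS5 signal after each array was scaled to a common median, so that a step of 1 is a doubling. Signals under the 10th percentile of all values were set to it, a floor of 1.91. Levels of different probe sets are not compared, because each binds its target with its own strength. Between 8.33% and 10.6% of probe sets lay at the floor per array. All arrays carried the RNA of magnocellular neurones, with Avp group means from 12.03 to 12.38 and Oxt means from 11.90 to 12.15, and the parvocellular peptide Crh read 9.14 in WKY PVN and 5.07 in WKY SON. The PVN neurone factor Pou3f2 was at the floor on 19 of 19 arrays. Array 3 of WKY SON was the least like the other arrays of its group, with a mean correlation of 0.929, followed by array 5 of WKY SON at 0.945 and array 4 of SHR PVN at 0.947, while the remaining arrays lay between 0.953 and 0.968.

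**Figure D1:**
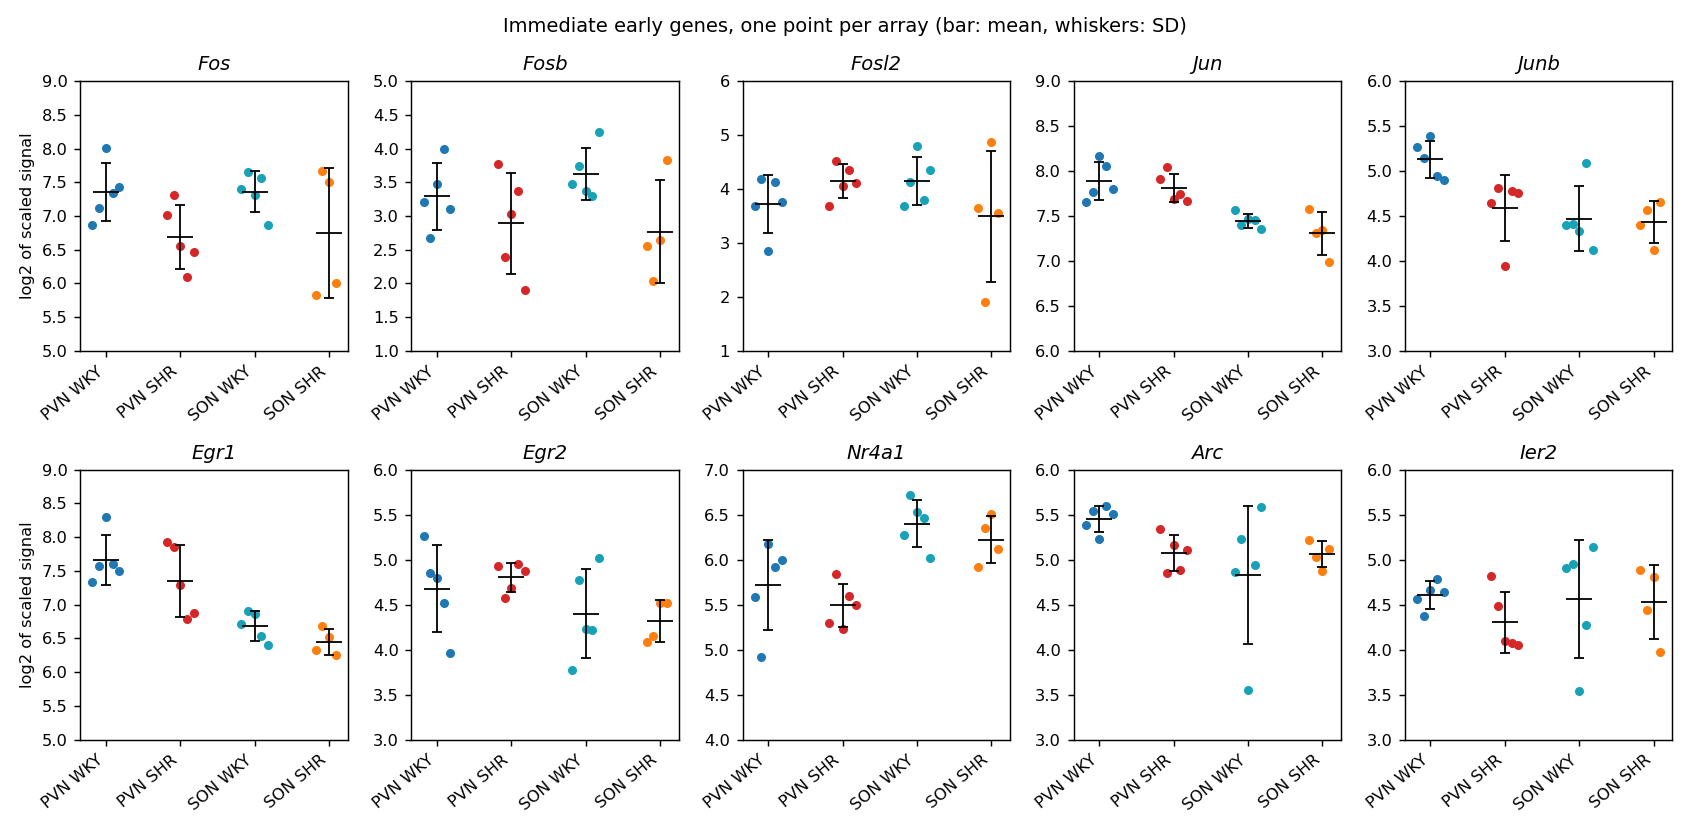
Level of each of the 10 genes (log2 of scaled signal; the probe set with the highest mean) on each array of the 4 groups, with group mean and SD; panels have their own axes, which do not start at 0. The 2 low and 2 high Fos arrays of SHR SON, the low SON levels of Egr1 and the high SON levels of Nr4a1 can be seen.

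Fos, the prototype of the set, was read by a bright and a dim probe set. On the bright one, 1375043_at, the WKY PVN arrays read 6.86, 7.12, 8.01, 7.33 and 7.43, and the SHR PVN arrays read 7.01, 7.31, 6.56, 6.10 and 6.46. The WKY SON arrays read 7.40, 7.66, 7.31, 7.57 and 6.87, and the SHR SON arrays read 5.83, 7.66, 7.50 and 6.0. WKY means were alike in the nuclei at 7.35 ± 0.43 (SD, n = 5) and 7.36 ± 0.31 (SD, n = 5). SHR means were 6.69 ± 0.47 (SD, n = 5) in the PVN and 6.75 ± 0.97 (SD, n = 4) in the SON. Every pair of groups overlapped, and in SHR SON 2 arrays lay with the WKY arrays and 2 lay below all of them, so that the highest signal was 3.55-fold the lowest within that group. The dim probe set 1371283_at had group means from 3.52 to 4.03 and did not follow the bright one (r = -0.02 over deviations from group means, 19 arrays).

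The other Fos proteins were read near the bottom of the scale. Fosb, whose truncated form accumulates with repeated stimulation, had means of 3.29 in WKY PVN, 2.89 in SHR PVN, 3.63 in WKY SON and 2.77 in SHR SON, with 1 array at the floor. Fosl2 probe set 1387530_a_at had means from 3.50 to 4.15 and was at the floor on 1 array, and its probe set 1383860_at was at the floor on 15 of 19 arrays. Neither gene passed the filter on low values, which asks that the mean of at least 1 group in the fit reach the median of all probe-set means.

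Jun, the partner that Fos proteins need to bind DNA with high affinity, was read by 3 probe sets. On 1389528_s_at the WKY PVN arrays read 7.66, 7.77, 8.17, 8.06 and 7.80, the SHR PVN arrays 7.91, 8.04, 7.69, 7.75 and 7.67, the WKY SON arrays 7.56, 7.40, 7.46, 7.46 and 7.36, and the SHR SON arrays 7.57, 7.32, 7.35 and 6.99. In each strain every SON array lay below every PVN array. Probe set 1369788_s_at followed it (r = 0.86 over deviations, 19 arrays), with means of 7.57, 7.39, 7.25 and 6.93 in WKY PVN, SHR PVN, WKY SON and SHR SON. Probe set 1374404_at followed neither (r = 0.21 with 1369788_s_at and 0.26 with 1389528_s_at), with means from 5.69 to 5.88.

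Junb, the Jun family member that can hold Jun activity back, read 5.26, 5.14, 5.39, 4.95 and 4.90 in WKY PVN and 4.65, 4.81, 3.95, 4.78 and 4.75 in SHR PVN. It read 4.40, 4.42, 4.33, 5.08 and 4.12 in WKY SON and 4.40, 4.56, 4.12 and 4.66 in SHR SON. All 5 SHR PVN arrays were below all 5 WKY PVN arrays, while the strains overlapped in the SON. Junb did not pass the filter in any fit.

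Egr1, a factor induced by growth factors and synaptic activity, read 7.33, 7.57, 8.29, 7.60 and 7.50 in WKY PVN and 7.93, 7.85, 7.29, 6.79 and 6.87 in SHR PVN. In the SON it read 6.71, 6.91, 6.86, 6.53 and 6.41 in WKY and 6.33, 6.69, 6.52 and 6.25 in SHR. Its order was WKY PVN (7.66 ± 0.37, SD, n = 5), SHR PVN (7.35 ± 0.53, SD, n = 5), WKY SON (6.68 ± 0.22, SD, n = 5) and SHR SON (6.44 ± 0.20, SD, n = 4). The strains overlapped within each nucleus, and within each strain the nuclei did not overlap. Egr2, best known for its part in myelination by Schwann cells, was dimmer, with means of 4.68, 4.80, 4.40 and 4.32 in the same order of groups on 1387306_a_at, while 1398266_a_at was at the floor on 8 arrays.

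Nr4a1 ran the other way between the nuclei. It read 5.59, 4.91, 6.18, 5.92 and 5.99 in WKY PVN and 5.30, 5.84, 5.23, 5.59 and 5.50 in SHR PVN. It read 6.28, 6.72, 6.53, 6.47 and 6.02 in WKY SON and 5.92, 6.35, 6.51 and 6.12 in SHR SON. All SHR SON arrays lay above all SHR PVN arrays, and in WKY only the highest PVN array reached into the SON range.

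Arc, whose mRNA travels to active dendrites, read 5.39, 5.54, 5.23, 5.60 and 5.50 in WKY PVN and 5.34, 4.85, 5.17, 4.89 and 5.11 in SHR PVN. It read 4.86, 5.22, 3.55, 4.94 and 5.58 in WKY SON and 5.22, 5.03, 4.88 and 5.12 in SHR SON. The reading of 3.55 came from array 3 of WKY SON, the array least like its group, and widened the SD of that group to 0.77. Ier2 was lowest on the same array, at 3.54, and its group means ran only from 4.30 to 4.61, below the filter.

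Strain was compared within each nucleus. In the PVN, 7 probe sets of 5 genes passed the filter (Fos 1375043_at, the 3 Jun probe sets, Egr1, Nr4a1 and Arc), and 0 of these 7 were called at an adjusted p under 0.05 (limma, Benjamini-Hochberg over 16104 probe sets), where the share of all tested probe sets past this threshold was 2.36%, made up of 1.14% with SHR higher and 1.22% with SHR lower, and the share that was also at least 2-fold apart was 0.627%. The smallest unadjusted limma p were 0.00624 for Arc and 0.00919 for Fos. Arc reached the filter's cut of 5.32 only through WKY PVN, the group where it is high, while the other 6 probe sets reached it in both strains. The differences of these 6, of which 3 are of the gene Jun, were all below 0, with SHR lower, as were 58.3% of all probe sets tested. Their median was -0.20 beside -0.04 for all. Marker lists had medians on both sides of 0. Below 0 were magnocellular and parvocellular (-0.37), oligodendrocyte (-0.30), astrocyte (-0.18), pan-neuronal (-0.17) and microglia markers (-0.17), and the 1 blood marker tested (-0.48). Above 0 were endothelial and mural (0.02), meningeal and fibroblast (0.12) and ependymal and choroid plexus markers (0.37). The part of these markers in the members' values was not tested. Fos in SHR was 63.2% of its WKY level (log2 difference -0.66, 95% interval -1.14 to -0.19, limma adjusted p = 0.171). Arc was 76.9% of its WKY level (log2 difference -0.38, 95% interval -0.63 to -0.12, limma adjusted p = 0.139, or 0.201 with the filter removed), a difference that its way past the filter favours. Without array 1 of SHR PVN the Arc difference was -0.45 with a limma adjusted p of 0.0373, a call that no other single omission gave. Egr1 differed by -0.31 (95% interval -0.79 to 0.17) and Nr4a1 by -0.23 (95% interval -0.65 to 0.20). Junb, tested only with the filter removed, differed by -0.54 (95% interval -0.95 to -0.14, limma adjusted p = 0.269), and it was the 1 member probe set of 15 whose strains did not overlap, as 3.05% of all probe sets did not. The other member probe sets below the filter went both ways. Above 0 were Fosl2 1387530_a_at (0.43), Fosl2 1383860_at (0.03) and Egr2 1387306_a_at (0.13). Below 0 were Fosb (-0.39), Ier2 (-0.30), Egr2 1398266_a_at (-0.19) and Fos 1371283_at (-0.12).

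In the SON, 6 probe sets of 4 genes passed the filter, since Arc did not, and 0 of 6 were called, against 3.62% of all 16190 tested (1.29% with SHR higher, 2.33% with SHR lower, and 0.766% with the 2-fold limit). The smallest unadjusted limma p was 0.0176, for Jun 1369788_s_at. All 6 differences, which again count Jun by more than 1 probe set, were below 0, as were 58.6% of all probe sets. Their median was -0.21 beside -0.04 for all. Marker lists again had medians on both sides of 0. Below 0 were the 12 pan-neuronal markers tested (-0.21), magnocellular and parvocellular (-0.13), astrocyte (-0.10), endothelial and mural (-0.07) and oligodendrocyte markers (-0.02). Above 0 were meningeal and fibroblast (0.55), microglia (0.28), ependymal and choroid plexus (0.22) and blood markers (0.18). The part of these markers in the members' values was not tested. Jun 1369788_s_at read 7.32, 7.29, 7.28, 7.22 and 7.15 in WKY and 7.09, 7.03, 7.03 and 6.58 in SHR, without overlap (log2 difference -0.32, 95% interval -0.57 to -0.07, limma adjusted p = 0.152). It was the only member probe set of 15 without overlap, as were 6.08% of all probe sets. The other Jun probe sets differed by -0.12 and -0.14. Without array 4 of SHR SON, the lowest, the 1369788_s_at difference was -0.20. Fos in SHR was 65.4% of its WKY level with a wide interval (log2 difference -0.61, 95% interval -1.38 to 0.16, limma adjusted p = 0.374), and this moved between -0.92 and -0.31 as single arrays were left out, the former without array 2 and the latter without array 1 of SHR SON. Fosb, below the filter, differed by -0.86 (95% interval -1.69 to -0.03, limma adjusted p = 0.365 with the filter removed). Of the other member probe sets below the filter, Arc (0.23) and Fosl2 1383860_at (0.03) were above 0. Below 0 were Fosl2 1387530_a_at (-0.65), Fos 1371283_at (-0.51), Egr2 1398266_a_at (-0.43), Egr2 1387306_a_at (-0.08), Junb (-0.04) and Ier2 (-0.03).

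The strain differences of the nuclei were set against each other in 1 fit of all groups. Of 7 member probe sets 0 were called, with 0.0819% of all 17095 probe sets called (0.0117% above 0, 0.0702% below, 0.0526% with the 2-fold limit). The smallest unadjusted limma p among the 7 was 0.0972, for Arc. The Fos strain differences, -0.61 in the SON and -0.66 in the PVN, lay 0.05 apart (95% interval -0.91 to 1.01), the one in the SON being nearer 0. The interval for Arc ran from -0.12 to 1.34 around 0.61 (limma adjusted p = 0.797).

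**Figure D2:**
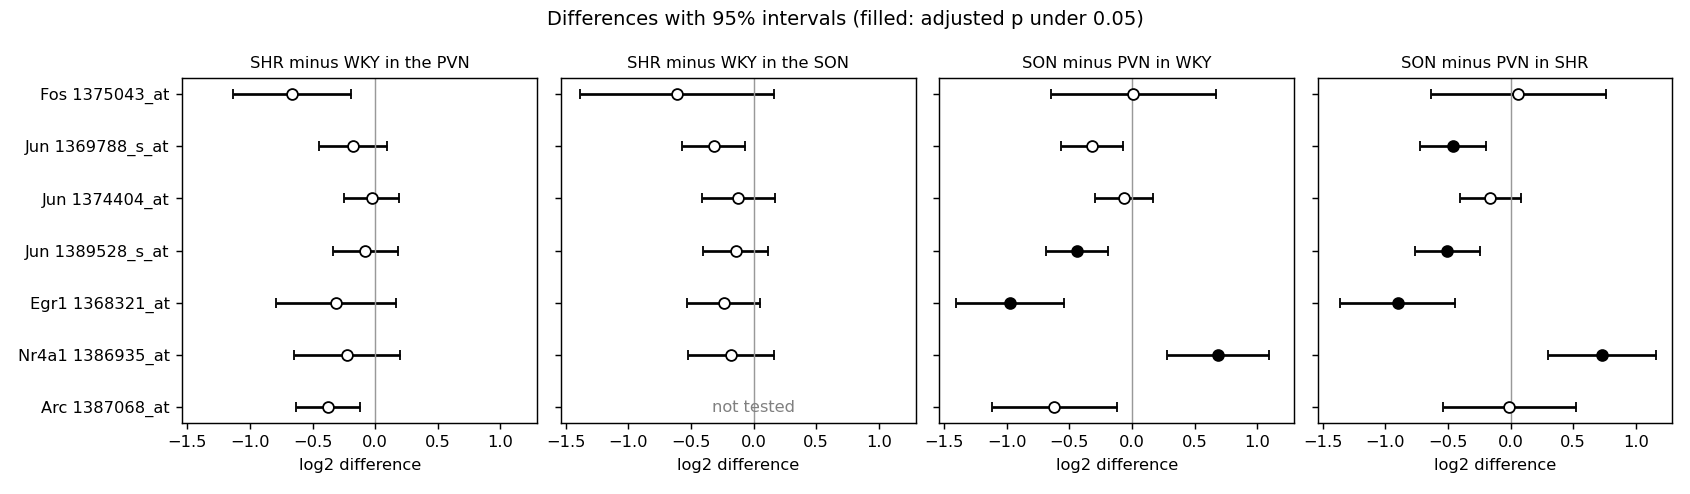
Log2 differences of the member probe sets that passed the filter, with 95% intervals, for SHR minus WKY in each nucleus and SON minus PVN in each strain; filled points have a limma adjusted p under 0.05. No point is filled in the strain panels, and Egr1 and Nr4a1 are filled on opposite sides of 0 in both nucleus panels.

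Between the nuclei several members differed. Egr1 and Jun were lower and Nr4a1 was higher in the SON than in the PVN in both strains, while the Fos means were close to each other with wide intervals. In WKY, 3 of the 7 tested members' probe sets passed, with 1 above and 2 below their PVN level, where 26.9% of all 17095 passed (13.2% above and 13.7% below). In SHR 4 of 7 passed, with 1 above and 3 below, where 29.4% of all passed (13.7% above and 15.7% below). With the 2-fold limit 0 of the 7 passed in either strain, where 4.91% of all did in WKY and 5.65% in SHR. Among the 6 probe sets that reached the cut in all groups, differences below 0 were 4 in each strain, beside 51.2% and 52.0% of all. Jun counts by more than 1 probe set here. Egr1 in the SON was 50.9% of its PVN level in WKY (log2 difference -0.97, SE 0.21, limma adjusted p = 0.00150) and 53.5% in SHR (log2 difference -0.90, SE 0.22, limma adjusted p = 0.00412). Nr4a1 in the SON was 1.61-fold its PVN level in WKY (log2 difference 0.68, SE 0.20, limma adjusted p = 0.0130) and 1.66-fold in SHR (log2 difference 0.73, SE 0.21, limma adjusted p = 0.0110). Jun 1389528_s_at was 73.6% in WKY (log2 difference -0.44, limma adjusted p = 0.00815) and 70.5% in SHR (log2 difference -0.50, limma adjusted p = 0.00432).

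Jun 1369788_s_at was called in SHR at -0.46 (limma adjusted p = 0.00874) and just missed the threshold in WKY at -0.32 (limma adjusted p = 0.0512), and was called there in 11 of 27 other settings. Jun 1374404_at differed by -0.06 in WKY and -0.16 in SHR and was not called. Fos differed by 0.01 in WKY (95% interval -0.65 to 0.67) and by 0.06 in SHR (95% interval -0.64 to 0.76), which leaves differences of up to 1.59-fold and 1.69-fold within the intervals. Arc entered this fit only through WKY PVN, where it is high, which favours a lower value in WKY SON. It differed by -0.62 in WKY (limma adjusted p = 0.0612, or 0.129 with the filter removed) and by -0.01 in SHR. The WKY value was -0.30 without array 3 of WKY SON, and it was called without array 2 (-0.72, limma adjusted p = 0.0428) or array 5 (-0.81, limma adjusted p = 0.0134) of that group. With the filter removed Junb was lower in WKY SON by -0.66 (limma adjusted p = 0.0256) and differed by -0.15 in SHR. Counting overlap over all 15 member probe sets, the nuclei did not overlap for 3 in WKY (2 of Jun and Egr1) and for 5 in SHR (the same 3, Egr2 1387306_a_at and Nr4a1), where 13.6% and 14.9% of all probe sets did not overlap.

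Marker lists of cell types also held calls in this contrast. Of all probe sets 26.9% were called in WKY and 29.4% in SHR. Of 11 meningeal and fibroblast markers 11 were higher in the SON in each strain, with a median log2 difference of 3.06 in WKY and 3.31 in SHR, and of 13 endothelial and mural markers 7 were higher in WKY and 6 in SHR. Of 7 ependymal and choroid plexus markers 6 were lower, with medians of -1.97 and -2.05. Only 3 of the 7 reached the filter's cut in all groups, with 2 called in each strain and medians of -1.42 and -1.58. Of the 13 endothelial and mural markers 10 reached it in all groups, with 5 called in WKY and 4 in SHR. With the filter removed, 6 ependymal markers in each strain, and 7 and 6 endothelial and mural markers, were called. Of the 11 meningeal markers, 3 reached the filter's cut in all groups and were higher in both strains, and the 11 were also called with the filter removed. Of 8 astrocyte markers 3 were higher in each strain, Aldh1l1 by 2.73 and 2.40, Gfap by 1.13 and 1.36, and Aqp4 by 0.58 and 0.78 in WKY and SHR. The others were not called, and the list medians were only 0.05 in WKY and 0.17 in SHR. In WKY Slc1a3 differed by -0.25, Glul by -0.15, Gja1 by -0.09, S100b by 0.01 and Agt by 0.09. Of 13 pan-neuronal markers 1 was higher and 3 lower in WKY, and 1 was higher and 4 lower in SHR, around medians of -0.03 and -0.08. Among them Gad1 differed by -1.43 and -1.12, Gap43 by -1.40 and -1.10, Rbfox3 by -0.64 and -1.16, and Nefm by 0.37 and 0.40. Of 9 oligodendrocyte markers 0 were higher and 1 lower in WKY, and 4 were higher and 0 lower in SHR (medians 0.02 and 0.45). Of 8 microglia markers 1 was higher and 2 lower in WKY, and 2 were higher and 1 lower in SHR (medians -0.09 and 0.24). Of 2 blood markers 1 was higher in WKY and 2 in SHR. The part of these cell types in the differences of Egr1, Jun and Nr4a1 was not tested. In tissue RNA, fewer cells of a type and less RNA per cell cannot be told apart.

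Relatives of the members outside the set were also called in the nucleus contrast. Jund, the third Jun gene, was lower in the SON by -0.63 in WKY and -0.60 in SHR. Nr4a2 and Nr4a3, the other nuclear receptors of the Nr4a family, were both lower, Nr4a2 by -0.58 and -0.82 and Nr4a3 by -0.63 and -0.61, opposite in sign to Nr4a1. Among 17 tested genes of a list of other immediate early transcription factors, 2 were higher and 4 lower in WKY, and 4 were higher and 4 lower in SHR. Of the 9 that reached the filter's cut in all groups, only 1 was called in WKY and 2 in SHR. Of all probe sets 26.9% were called in WKY and 29.4% in SHR. Myc rose by 0.92 and 0.81 and Cebpd, a factor of astrocytes and inflammation, by 0.62 and 1.06 in WKY and SHR. Feedback and stress-responsive early genes had 5 higher and 2 lower of 16 in WKY and 4 higher and 1 lower in SHR, with Ier3 higher by 1.05 and 1.78 and Gadd45b by 1.24 and 1.09. Of the 13 that reached the cut in all groups, 4 were called in WKY and 2 in SHR. Cdkn1a, an inhibitor of the cell cycle, was lower by -1.22 and -0.96. Of these genes Nr4a2 reached the filter's cut only in the PVN groups, Myc, Cebpd and Ier3 only in the SON groups, Gadd45b only in WKY SON and Nr4a3 in all but SHR SON, so that the group where each is high let it in. With the filter removed Nr4a3 had limma adjusted p of 0.0528 in WKY and 0.0744 in SHR, Gadd45b had 0.0593 in SHR, and the other calls named here held.

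More activity-regulated neuronal effectors were called lower than higher in the SON. Of 16 tested, 2 were higher and 7 lower in WKY, and 1 was higher and 7 lower in SHR. Of all probe sets 13.2% were higher and 13.7% lower in WKY, and 13.7% and 15.7% in SHR. Among the 14 effectors that reached the filter's cut in all groups, differences below 0 were 8 in WKY and 9 in SHR, beside 51.2% and 52.0% of all. Their medians were -0.10 and -0.17. The growth factor Bdnf, which reached the filter's cut only in the PVN groups, differed by -2.07 and -2.72, the synaptic pentraxin Nptx1 by -1.83 and -2.04, and the granule protein Scg2 by -1.60 and -1.48. Somatostatin, Sst, which is on this list and also a parvocellular marker, differed by -4.79 and -4.58. Upstream kinases and factors had 1 higher and 3 lower of 22 in WKY and 2 higher and 6 lower in SHR, with Camk2a at -1.34 and -1.02. Vascular and growth-factor early genes had 3 higher and 2 lower of 8 in WKY and 4 higher and 2 lower in SHR, with Ccn2, below the filter's cut in SHR PVN alone, at 1.68 and 2.38 and Vegfa at 0.88 and 0.80. Heat shock and handling genes had 4 higher and 2 lower of 10 in each strain, with Hspb1 at 2.96 and 2.79. Beside the counts of these lists, 26.9% of all probe sets were called in WKY and 29.4% in SHR.

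In the strain contrast these 6 lists held 0 calls in the PVN, where 2.36% of all probe sets were called, and in the SON they held 6. Of all probe sets tested in the SON 3.62% were called, 1.29% with SHR higher and 2.33% with SHR lower. The SON calls were 1 of 14 other transcription factors and 5 of 15 effectors. There were 0 among 16 feedback, 8 vascular, 21 upstream and 10 heat shock genes. Per1, a clock gene that stimuli also induce, was higher in SHR SON by 0.84 (limma adjusted p = 0.0316). Of 15 effectors 5 were lower in SHR SON and 0 higher. Pcdh8, a cadherin of synapses, differed by -0.74 (limma adjusted p = 0.00283), Gem, a small GTPase, by -0.62 (limma adjusted p = 0.0395), and Nrn1, a neurite growth protein, by -0.49 (limma adjusted p = 0.0180). The neuropeptide precursor Vgf differed by -0.47 (limma adjusted p = 0.0398) and Rasd1 by -0.47 (limma adjusted p = 0.0412). Per1 reached the filter's cut only through SHR and Pcdh8 only through WKY, each the group where it is high. With the filter removed Pcdh8 and Nrn1 were called (limma adjusted p = 0.0188 and 0.0373), and Vgf, Rasd1, Gem and Per1 were not (0.0928, 0.0932, 0.133 and 0.134). With any 1 of the 9 SON arrays left out, between 1 and 3 of the effectors were past the threshold, under other scalings, filters and tests the count ran from 0 to 6, and Per1's list held 0 calls without array 1 or 3 of SHR SON or array 4 or 5 of WKY SON. The median over the 14 that reached the cut in both strains was -0.17, beside -0.04 for all probe sets and -0.21 for pan-neuronal markers. In the same contrast 3 of 11 meningeal and fibroblast markers were higher in SHR SON, with a list median of 0.55, and the part of either list in these values was not tested.

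Spread within groups set some members apart from the array as a whole. The pooled SD of Fos within groups was 0.57, above that of 97.4% of all 17095 tested probe sets, whose median was 0.21, and above that of 99.8% of the 4187 with a mean level within 0.5 of its own. Egr1 had an SD of 0.36 (90.5% of all, 97.5% of 4185 at its level), and Nr4a1 had 0.34 (87.7% and 84.7%). Arc had 0.42 (94.4% and 78.6%), which array 3 of WKY SON widened. Jun was quiet, at 0.18 for both 1389528_s_at and 1369788_s_at, which placed them at 33.9% and 35.7% of all probe sets.

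**Figure D3:**
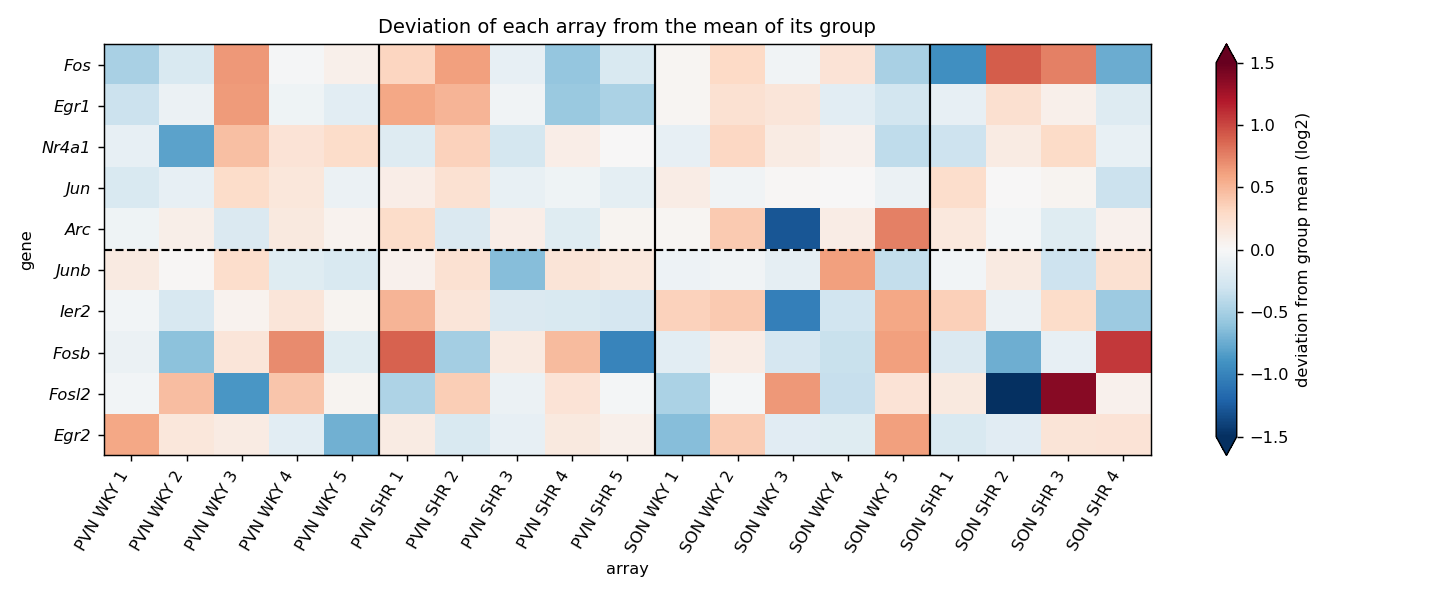
Deviation of each array from the mean of its group (log2; red above, blue below) for the 10 genes, with solid lines between groups and a dashed line under the 5 genes that passed the filter. Fos, Egr1 and Nr4a1 are red together on array 3 of WKY PVN, array 2 of SHR PVN, array 2 of WKY SON and arrays 2 and 3 of SHR SON.

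Egr1 and Nr4a1 each varied with Fos within groups. Deviations from group means were correlated between Fos and the other 9 genes over 19 arrays, with a permutation test within groups (2-sided, Benjamini-Hochberg over 9). Egr1 followed Fos with r = 0.72 (permutation p = 0.0001, adjusted 0.0009) and rho = 0.78 (adjusted 0.00261). Nr4a1 followed Fos with r = 0.58 (permutation p = 0.00824, adjusted 0.0371) and rho = 0.68 (adjusted 0.0158). Such values were not particular to the set, since genes outside it, such as Peli1 (r = 0.84) and Nsmce1 (r = 0.83), followed Fos more closely. The share of all probe sets that followed Fos this closely was not counted. Without the 2 arrays farthest from the median of Fos, arrays 1 and 2 of SHR SON, r was 0.77 for Egr1 and 0.57 for Nr4a1. The Egr1 relation passed the threshold in 22 of 22 other settings and the Nr4a1 relation in 14 of 22. The Nr4a1 relation missed it without array 3, 4 or 5 of WKY PVN, array 2 of SHR PVN, array 3 of SHR SON, or array 2 or 5 of WKY SON, with r from 0.52 to 0.59 in these. Between the other members r was 0.36 for Egr1 with Nr4a1, 0.62 for Jun with Egr1 and 0.35 for Jun with Nr4a1, given with no test, so that Egr1 and Nr4a1 were each more alike to Fos than to each other.

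Jun's relation with Fos turned on 1 array. Its r was 0.42 over all arrays (permutation p = 0.184, adjusted 0.553), 0.78 without arrays 1 and 2 of SHR SON, and 0.81 without array 1 alone (adjusted 0.00283). On that array Fos lay 0.92 below its group mean and Jun 0.27 above. The remaining genes had r of 0.18 (Ier2), 0.08 (Junb), -0.17 (Arc), -0.21 (Egr2), -0.26 (Fosl2) and -0.29 (Fosb), none of them past the threshold, and of these only Arc had passed the filter.

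Within the nuclei the pattern was not the same. In the PVN, over 10 arrays, r with Fos was 0.92 for Egr1 (exact permutation p = 0.00111, adjusted 0.0100), 0.84 for Jun (exact permutation p = 0.00347, adjusted 0.0156) and 0.49 for Nr4a1 (exact permutation p = 0.166, adjusted 0.372). The rho for Jun, 0.76, had an adjusted exact permutation p of 0.106. In the SON, over 9 arrays, r was 0.79 for Nr4a1 (exact permutation p = 0.00903, adjusted 0.0812), 0.71 for Egr1 (exact permutation p = 0.0378, adjusted 0.170) and 0.09 for Jun. Whether these coefficients differ between the nuclei was not tested.

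**Figure D4:**
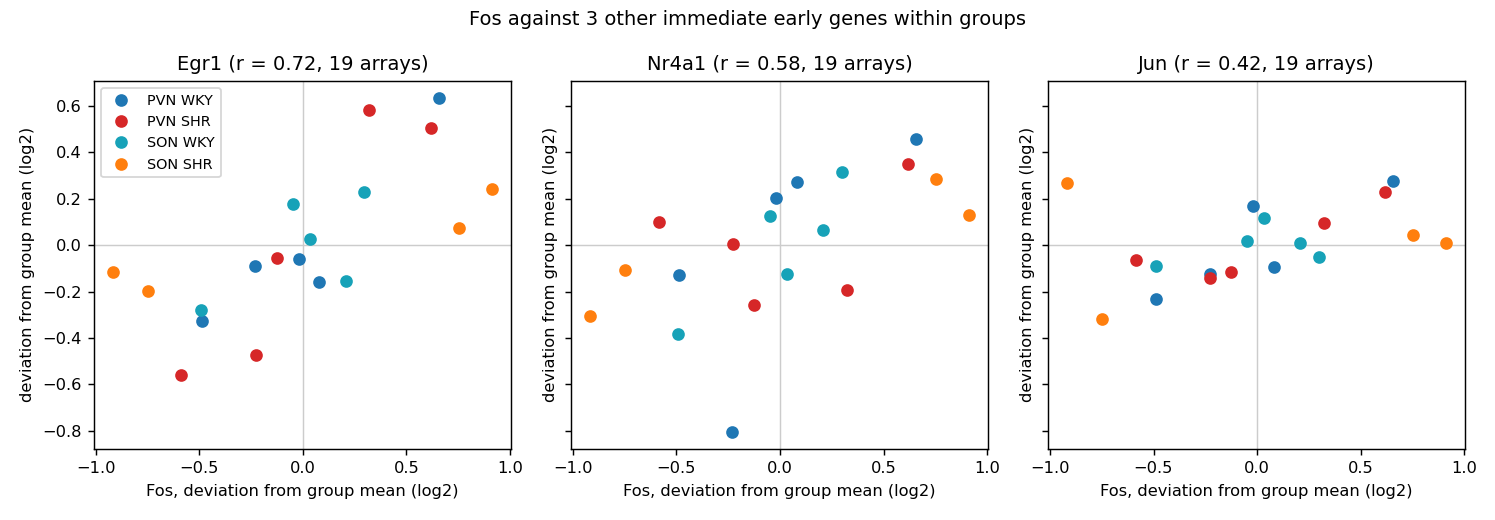
Deviation from the group mean (log2) of Egr1, Nr4a1 and Jun against that of Fos, one point per array, coloured by group, with r over 19 arrays above each panel. Egr1 and Nr4a1 rise with Fos, and in the Jun panel array 1 of SHR SON sits at the upper left.

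Some arrays stood at the edge of their group for several members. Array 3 of WKY PVN was the highest of its group for 4 of the 5 tested genes, being 0.66 above the group mean for Fos, 0.63 for Egr1, 0.46 for Nr4a1 and 0.28 for Jun, and was lowest for Arc. Array 5 of WKY SON was the lowest of its group for 4 of the 5, and the highest for Arc. Array 2 of SHR PVN was highest for 3 and lowest for Arc. In SHR SON the 2 arrays with high Fos were also the 2 with the highest Egr1 and Nr4a1 in that group.

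Fos was then set beside 13 measures of tissue makeup and array quality on the same arrays, and 0 of these passed the threshold after adjustment over the 13. The strongest were the 3′ to 5′ ratio of the hexokinase control (r = 0.52, rho = 0.46, permutation p = 0.00720, adjusted 0.0860), oligodendrocyte markers (r = 0.50, rho = 0.54, permutation p = 0.0151, adjusted 0.0860) and the deposited median signal of the array (r = -0.43, rho = -0.53, permutation p = 0.0198, adjusted 0.0860). Without arrays 1 and 2 of SHR SON these were 0.52, 0.51 and -0.59, and endothelial and mural markers reached 0.61 from 0.10. Their part in the relations with Fos was not tested. Magnocellular and parvocellular markers had r = -0.06 with Fos and pan-neuronal markers 0.35.

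The genes outside the set whose deviations were most like the mean of the 5 tested members were Peli1 (r = 0.88), Tmem126a (0.87), Opn3 (0.85), Nutf2 and Fbxl17l1 (0.84 each), Nsmce1 (0.84), Ppp6c and Slc35b1 (0.83 each), over 19 arrays. They are the 8 highest among the genes of 12991 probe sets compared, so high values are a product of the choice, and none is on the lists of early genes above. Peli1, a ubiquitin ligase of innate immune signalling, had an r of 0.84 with Fos alone and a within-group SD of 0.20. With Fos alone the 8 genes ran from 0.73 (Ppp6c) to 0.84, beside 0.72 for Egr1 and 0.58 for Nr4a1. They were chosen on a mean that includes Fos.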

How the data were processed

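PVN and SON RNA was labelled with biotin after 1 round of linear amplification and hybridised to Affymetrix rat arrays. The deposited values are intensities, namely linear MAS5 signals, which the authors computed from scans of the arrays (per the labels and methods). Their later GeneSpring normalisation and present calls are not in this table. Median signals ran from 35.9 to 46.5 per array, so each array was scaled to a common median here. Signals under 3.75 (the 10th percentile) were raised to it and log2 values taken. Depth has no meaning for arrays, and their number limits the precision.

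A probe set was tested where a group mean reached the 50th percentile of all probe-set means. limma 3.58.1 in R 4.3.3 (lmFit, eBayes, Benjamini-Hochberg) compared strains within each nucleus, and 1 fit of all groups gave the nucleus contrasts and the interaction. The fits were tested on simulated data. Correlations used 100000 permutations within groups, or all 14400 (PVN) and 2880 (SON). Gene symbols came from the platform annotation, updated through RefSeq (GRCr8). Promoters are RefSeq's. A gene with several probe sets stands by that of the highest mean. Named are all members, the 8 genes most alike, and up to 4 called genes per list by adjusted p. Rasd1 is beyond that rule and was named after its values were seen. Members and lists were chosen with earlier results of these data known. The study's supplement calls the samples of a group independent, and p-values measure the spread between these pooled samples. Alternatives were other scalings, floors, filters, tests and left-out arrays.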

Additional observations from a re-analysis of the deposited data

Results flagged for a closer look

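Of 60 groups of 4 or 5 arrays examined, 1 for each member probe set and group, 7 held an array far from the others. Chance would give about 1 in 20 for values off the floor, so the 7, which include floor values, cannot be set against that rate. For Fosl2 1383860_at the gap arose because all but 1 array of each group lay at the floor, with the single readings at 2.05 (array 5 of WKY PVN), 2.18 (array 1 of SHR PVN), 2.09 (array 1 of WKY SON) and 2.16 (array 3 of SHR SON). Jun 1369788_s_at was low on array 4 of SHR SON, at 6.58 against 7.03 for the next array. Junb was low on array 3 of SHR PVN, at 3.95 against 4.65 for the next. Egr1 was high on array 3 of WKY PVN, at 8.29 against 7.60 for the next.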

How the results depend on the processing

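The member counts past the threshold were 0 for both strain contrasts and for the interaction under every other scaling, floor, filter and test run, the Welch test of the methods included. With single arrays left out they ran from 0 to 1 in the PVN, stayed at 0 in the SON and the interaction, ran from 3 to 4 for the nuclei in WKY and stayed at 4 in SHR. The WKY nucleus count of 3 became 5 with values as deposited, with log2(value + 16) and with the replicate number as a block. The numbers were not taken as pairs, since the labels do not say that arrays of 1 number share rats. Deviations of same-numbered PVN and SON arrays correlated at -0.0091 to -0.0011 in WKY and at 0.035 to 0.17 in SHR. Arrays of unlike number were not compared, so these values cannot tell whether the arrays are paired. The replicate block turned the interaction for Fos to -0.0059 and for Egr1 to -0.046. The 2 genes that followed Fos became 1 with values as deposited, and 1 to 3 with single arrays left out, and the SD of Fos ran from 0.51 to 0.59. Values as deposited also turned Jun 1374404_at in the PVN to 0.011, Arc between the nuclei in SHR to 0.0069 and the r of Fos with Junb to -0.018.

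Differences near 0 changed sign as single arrays were left out, for causes that were not tested. Between the strains in the PVN Jun 1374404_at ran from -0.069 to 0.011. Between the nuclei Fos ran from -0.11 to 0.17 in WKY and from -0.24 to 0.37 in SHR, and Arc in SHR from -0.066 to 0.056. For the interaction Fos ran from -0.25 to 0.36, Jun 1374404_at from -0.16 to 0.0013, Jun 1389528_s_at from -0.15 to 0.043, Egr1 from -0.086 to 0.22 and Nr4a1 from -0.065 to 0.25. The r of Fos with Fosl2 ran from -0.69 to 0.12 and with Junb from -0.00073 to 0.23.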
